A study of Drosophila melanogaster with 18 samples.

Results

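Brains of virgin 3-day-old females were compared with brains of virgin males of the same age, as 3 samples of each sex, 6 of the 18 samples of the series. All flies were Oregon wild-type Drosophila melanogaster, reared on cornmeal agar at a constant temperature in a cycle of equal light and dark, sorted by sex within hours of eclosion and snap-frozen, and carried no transgene or treatment. Each sample was RNA from a pool of 100 dissected brains, so each value is an average over many flies and over all cell types left on the brain. The values are reads per gene divided by a size factor for each library (normalized reads), and the question was which genes differed between the sexes at this age. The 6 samples hold values for 13439 genes, of which 12448 passed a filter on low values and were tested. Of these, 6149 had a mean of 100 or more normalized reads over the 6 samples and are described first, and 6299 scarcer genes are described apart.

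The fly brain is built of neurons and glia and lies among fat body, trachea, blood cells, retina and foregut, so dissected brains can carry RNA from these tissues. The fat body is the fly's counterpart of liver and adipose tissue and secretes yolk proteins, lipid carriers and immune peptides into the hemolymph. In neurons, sex is read out through the splicing regulator Sex-lethal, which leads through transformer to the sex-specific products of fruitless and doublesex.

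The 3 female libraries held 4211115 to 7652315 reads in genes and the 3 male libraries 3240636 to 8664494. The female libraries had a read in fewer genes, 11150, 12112 and 12063 (replicates 1, 2 and 3), than the male libraries, 12946, 12893 and 12904. At a common depth of 3240636 reads the expected numbers were 10813, 11929 and 11527 in females and 12946, 12512 and 12515 in males, so female replicate 1 and male replicate 1 stood at the ends of this order. Markers of the labelled tissue were present in every library: the 5 neuronal markers (elav, nSyb, Syt1, brp and Syx1A) summed to 53778 to 76280 normalized reads in females and 42482 to 46166 in males. Summed markers of midgut were at 5927 to 16848 in females against 102 to 233 in males, and those of fat body at 5554 to 11647 against 3117 to 3979. The gene apolpp made up most of the fat body sum in every library. Of the 5 fat body markers 3 were higher in females at an adjusted p below 0.1. The others had log2 fold changes (females over males) of -0.22 and -1.84 and did not pass. The other marker sums overlapped between the sexes. They were 28951 to 67879 in females and 20471 to 32319 in males for photoreceptors, 7143 to 23947 and 7478 to 8033 for glia, and 3263 to 7682 and 3618 to 8397 for muscle. Those of other tissues were 86.7 to 203 and 70.9 to 268 for hemocytes, 280 to 1993 and 276 to 1202 for olfactory and taste organs, 4.86 to 169 and 27.1 to 46.6 for ovary, and 7.85 to 66.6 and 50.9 to 288 for testis. osk, an ovary marker, was at 0 in all 3 female libraries, and each of the other markers had reads in at least 1 library of either sex. In bulk brains, fewer cells of a type and less RNA per cell cannot be told apart.

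Of all 12448 genes tested, 379 were higher in females (3.04%) and 1038 lower (8.34%) at an adjusted p below 0.1, in a limma fit of log2(normalized reads + 1) over all ages of the series. Among the 6149 genes with a mean of 100 or more, 270 were higher (4.39%) and 86 lower (1.4%). Of the 270, 88 had a male mean under 100 and so reached the boundary through the females, and of the 86, 30 had a female mean under 100. The log2 fold changes (LFC, females over males) of the female-higher genes were large, with 86 of 270 at 2 or more and 42 at 4 or more, whereas only 4 of the 86 male-higher genes reached 2 in size and none reached 3. The median LFC over all 6149 genes was 0.09. In the plot of LFC by level, calls moved from male-higher to female-higher with abundance: in the bin of 10 to 25 normalized reads 15 of 1529 genes were higher and 378 lower, in the bin of 1000 to 5000 reads 57 of 1081 were higher and 3 lower. Of the 270 female-higher genes, female replicate 3 was the lowest female sample in 230, and of the 86 male-higher genes it was the highest female sample in 67. The counts leaned on single libraries: the 270 became 86, 107 and 675 without female replicates 1, 2 and 3 and 81, 171 and 134 without male replicates 1, 2 and 3, and the 86 became 6, 29, 385, 4, 24 and 50 in the same order. Without female replicate 1 and male replicate 1 together, a setting chosen after seeing the data, 18 were higher and 0 lower.

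**Figure D1:**
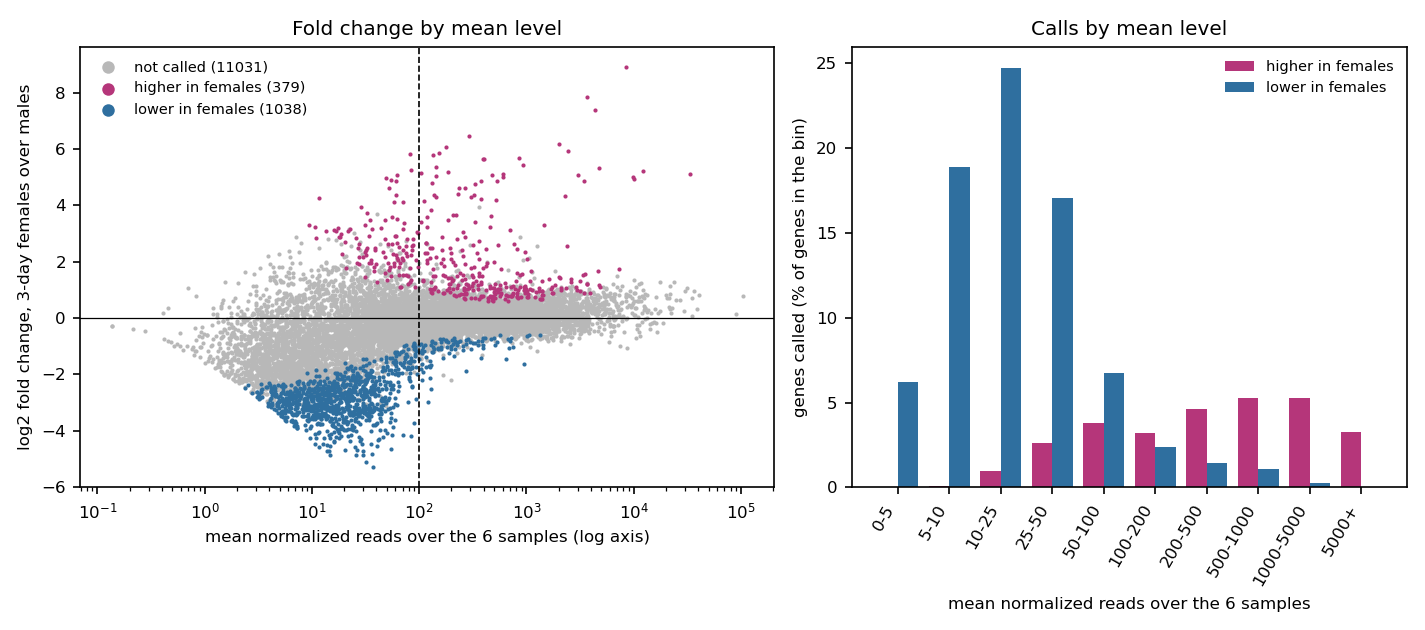
Left, log2 fold change of 3-day females over 3-day males (vertical axis) against the mean normalized reads over the 6 samples (log axis) for 12448 tested genes, with the boundary of 100 reads dashed and genes called at adjusted p below 0.1 coloured. Right, the percent of genes in each bin of mean level that were called higher or lower: lower calls reach 24.7% at 10 to 25 reads and higher calls 5.27% at 1000 to 5000 reads.

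Genes on either side of the boundary were alike in level: CG12219, the gene just inside it, was at 117, 82.4 and 112 in females and 79.9, 82.2 and 127 in males, and GrlHz, just outside it, at 111, 50.9 and 105 in females and 151, 96.9 and 84.9 in males.

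Abundant digestive genes were higher in females, and scarcer ones were divided. Of the 30 listed digestive proteases 24 were tested at any level, and 12 were higher and 3 lower (median LFC 3.50), against 3.04% and 8.34% of all genes tested. Of 30 sugar-cleaving and lipid-cleaving enzymes of the gut 25 were tested, and 8 were higher and 3 lower (median 1.20). The 11 proteases with a mean of 100 or more were all among the higher ones, but 10 of them had a male mean under 100, so the boundary itself selected for this direction, as it did for 6 of 9 such sugar and lipid enzymes. Of 13 scarcer proteases 1 was higher and 3 lower (median 0.13), and of 16 scarcer enzymes 1 was higher and 3 lower (median 0.80). Beside the 30 proteases together, which summed to 16951, 40527 and 10250 normalized reads in females and 468, 648 and 459 in males, all 5 midgut markers, which these lists share, were higher in females, 4 of them still without female replicate 1 and 3 without male replicate 1. Values here and below are in replicate order, 1 to 3. epsilonTry, a trypsin, was at 569.7, 1196 and 567 in females and 9.98, 19.7 and 12.8 in males. The LFC of epsilonTry was 5.64 ± 1.07 (adjusted p = 0.00745). Jon65Aiv, a serine protease of the Jonah family, was at 1458, 3409.5 and 584 in females and 31.6, 45.2 and 22.99 in males. The LFC of Jon65Aiv was 5.43 ± 1.06 (adjusted p = 0.00918). Mal-A6, a maltase, was at 183, 873 and 314 in females and 9.98, 20.5 and 13.4 in males (LFC 4.62 ± 1.02, adjusted p = 0.0167). In each of these the lowest female library was several times above the highest male library, and female replicate 2 was the highest. Amy-d, a copy of alpha-amylase nearly identical to Amy-p so that reads may be split between them, was at 252, 399.9 and 178 in females and 13.3, 9.04 and 2.55 in males. The LFC of Amy-d was 5.04 ± 0.73 (adjusted p = 0.00195). LysE, a lysozyme, was at 325, 174 and 343 in females and 1.66, 12.3 and 7.02 in males (LFC 5.36 ± 1.60, adjusted p = 0.0542), with female replicate 2 the lowest of the females. Without male replicate 1 the higher protease calls fell from 12 to 7, and those of the sugar and lipid enzymes from 8 to 4 (5 without female replicate 1). The 3 lower calls of each list became 0 without male replicate 1 and 0 under quantile normalization, where 4 of the 9 abundant sugar and lipid enzymes were called higher. LysE was called no longer without female replicate 1, male replicate 1 or male replicate 3 (adjusted p up to 0.225).

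A second set of very abundant female-higher genes differed from the enzymes in its male values. All but CG3906 were picked with their values in view. CG34220 (chromosome 2R, 10041065 to 10043507), the most abundant gene called, was at 98221, 87273 and 8083 in females and 501, 5753 and 587 in males. The LFC of CG34220 was 5.11 ± 1.41 (adjusted p = 0.0411). It took 1.42% of all reads in female replicate 1 and 0.00929% in male replicate 1. CG34324, on the X chromosome, was at 35403, 31298 and 4103 in females and 199.7, 2165 and 204 in males (LFC 5.21 ± 1.19, adjusted p = 0.0197). Muc68D, a mucin gene, was at 7909, 7584 and 1789.6 in females and 102, 656 and 39.0 in males (LFC 5.09 ± 1.19, adjusted p = 0.0216), and CG3906 at 10019, 15529 and 2181 in females and 86.5, 839.6 and 70.2 in males. The LFC of CG3906 was 5.33 ± 1.37 (adjusted p = 0.0306). In all 4, male replicate 2 stood far above the other males and female replicate 3 was the lowest female, yet the groups did not overlap. CG14645 (chromosome 3R, 4335098 to 4335506) was at 14461, 34871 and 8036 in females and 228, 2378 and 258 in males. It lies within Skp2 (chromosome 3R, 4334879 to 4337674), a ubiquitin ligase subunit, whose values were nearly the same, at 14499, 34008 and 8042 in females and 186, 2299.6 and 268 in males, and reads of the overlapping pair could not be assigned to either gene. The protease gene yip7 had the enzymes' pattern, with female replicate 2 highest, at 3729.8, 14668 and 1683 in females and 155, 228 and 103 in males. The LFC of yip7 was 4.86 ± 0.96 (adjusted p = 0.00956). At 7 days CG34220 reached 36177, 6227 and 25510 in males and 32553 and 1499 in females, so its high values were not limited to females at that age. The calls of CG34220 and CG14645 were lost without female replicate 1 or 2 or male replicate 1 or 3 (adjusted p up to 0.196 and 0.207), as was that of Skp2 (up to 0.199). Lost too were that of CG3906 without female replicate 1 or male replicate 1 or 3 (up to 0.156), and those of CG34324 and Muc68D without female or male replicate 1 (up to 0.122 and 0.112).

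**Figure D2:**
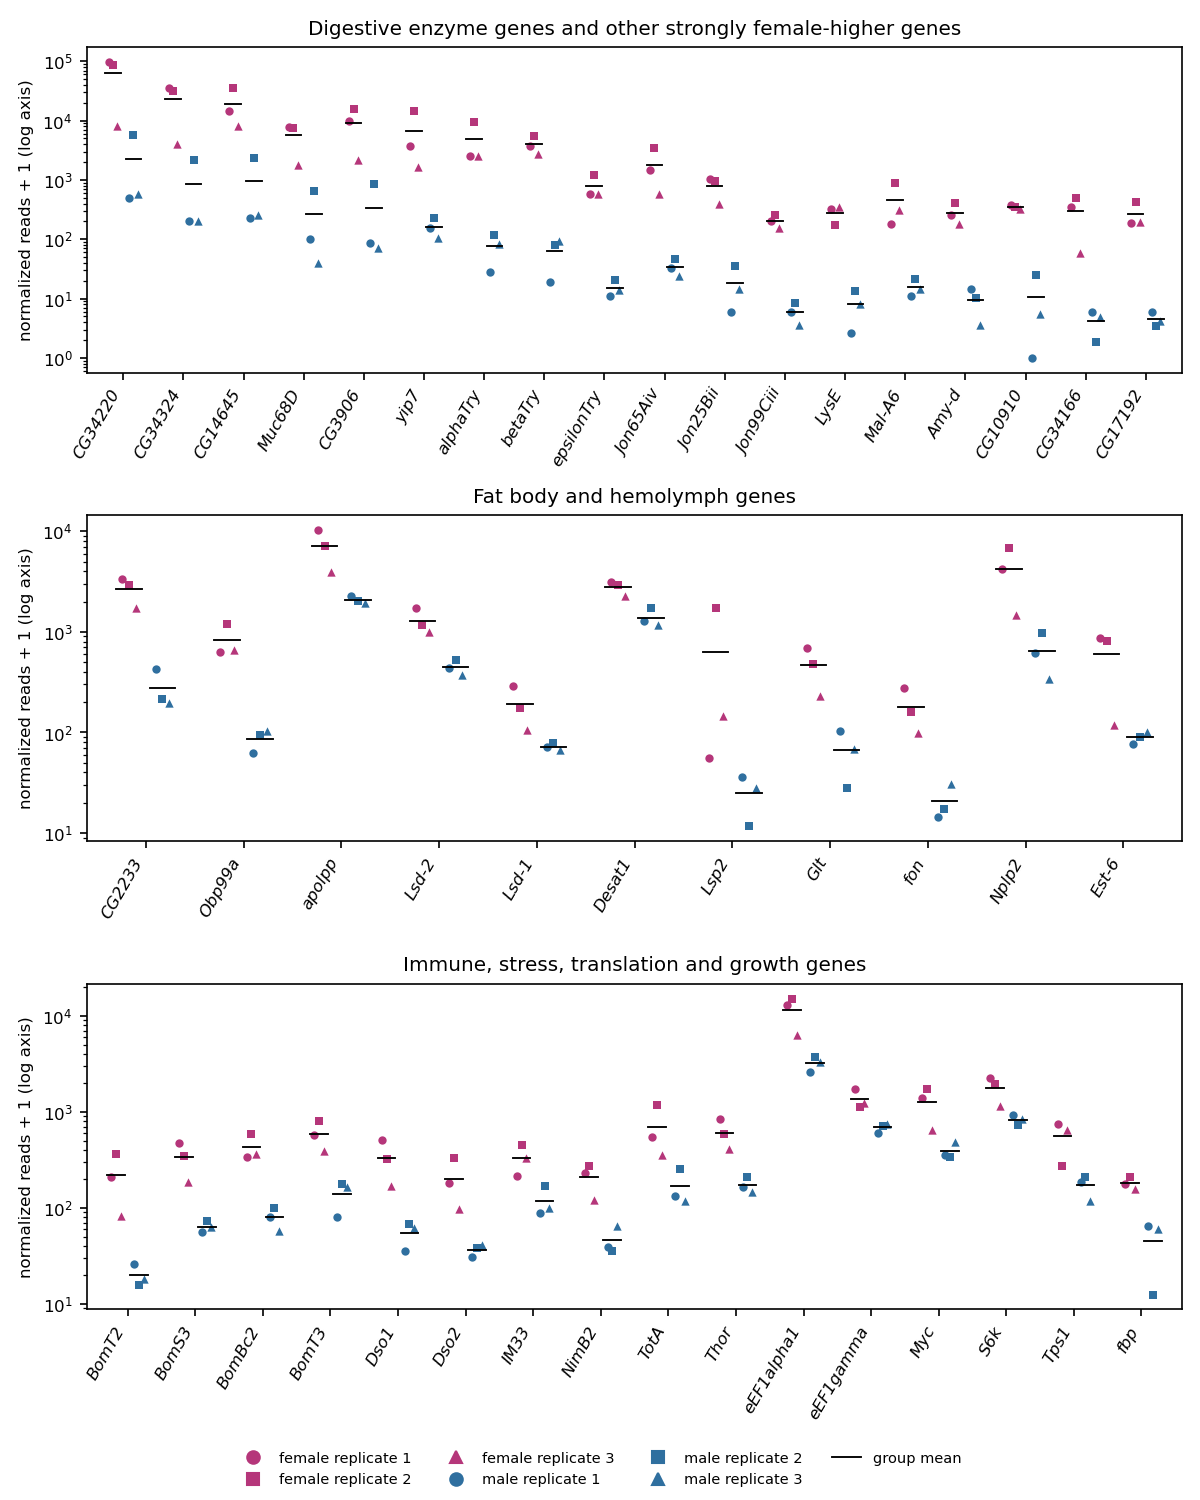
Normalized reads + 1 (log axis) of female-higher genes in each 3-day library, with females in magenta, males in blue, a marker shape for each replicate and a line at the group mean. In the top panel male replicate 2 (square) stands above the other males for CG34220, at 5753 against 501 and 587, and females lie above males throughout.

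Some genes expressed by fat body were also higher in females. The 3 yolk protein genes, which feed the oocyte and are known from fat body and ovary, rose most. Yp1 was at 22814, 20439.7 and 7333 in females and 44.9, 29.6 and 20.4 in males, and its LFC of 8.92 was the largest of all genes tested. Over all genes with a mean of 100 or more 4.39% were higher and 1.4% lower. Of the fat body secreted and storage proteins of this abundance 7 of 13 were higher and none lower (median LFC 0.92). Of the fat body lipid genes 4 of 11 were higher and none lower (median 0.64). Of these calls 3 and 1 had a male mean under 100. At any level 8 of 22 and 4 of 18 were higher (medians 0.38 and 0.42). Of their scarcer members 1 of 9 and 0 of 7 were higher (medians -0.62 and -0.46). CG2233 was at 3349, 2950.0 and 1709 in females and 426, 216 and 193 in males (LFC 3.29 ± 0.40, adjusted p = 3.30e-04). apolpp, the core protein of the fly's main lipoprotein, was at 10249, 7208 and 3916 in females and 2286, 2014 and 1957 in males. The LFC of apolpp was 1.67 ± 0.40 (adjusted p = 0.025). Lsd-2, a perilipin that coats lipid droplets, was at 1716, 1168 and 1004 in females and 438, 520.0 and 369 in males (LFC 1.53 ± 0.29, adjusted p = 0.00705), and its relative Lsd-1 at 289, 175 and 104 in females and 69.9, 77.2 and 65.8 in males. The LFC of Lsd-1 was 1.29 ± 0.35 (adjusted p = 0.0376). Males varied little in these lipid genes, while female replicate 3 was the lowest female in each. Lsp2, a storage hexamerin, was at 54.9, 1710.0 and 145 in females and 34.9, 10.7 and 26.8 in males (LFC 3.41 ± 0.91, adjusted p = 0.0356), so that female replicate 2 alone set its female mean. Among hemolymph proteins, Glt, a secreted glycoprotein of basement membranes, was at 696, 477 and 229 in females and 102, 27.1 and 67.7 in males (LFC 2.86 ± 0.49, adjusted p = 0.00498), and fon, a clotting protein and a scarcer gene, at 274, 158 and 97.3 in females and 13.3, 16.4 and 30.0 in males (LFC 3.04 ± 0.54, adjusted p = 0.00523). The secreted carboxylesterase Est-6 was at 869, 805 and 118 in females and 76.5, 88.7 and 99.6 in males (LFC 2.30 ± 0.67, adjusted p = 0.049), with female replicate 3 near the males. Nplp2, listed as a neuropeptide-like precursor, was at 4195, 6889 and 1473 in females and 619, 968 and 342 in males (LFC 2.56 ± 0.51, adjusted p = 0.00956), the 1 call by limma among 39 neuropeptide genes with a mean of 100 or more, whose median LFC was -0.35. DESeq2 called 2 of the 39 higher and 1 lower, and quantile normalization and rescaling each gave 1 higher, with 1 and 2 lower. Without female replicate 3 limma called 2 higher and 10 lower. Calls were lost for apolpp without female replicate 1 (adjusted p = 0.14), for Lsd-1 without female or male replicate 1 (up to 0.227), for Lsp2 without female replicate 2 or male replicate 1 or 2 (up to 0.126), and for Est-6 without female replicate 1 or 2 or male replicate 1 or 2 (up to 0.246). The lipid calls fell from 4 to 1 without female or male replicate 1 and to 2 without male replicate 3, and those of the secreted proteins from 7 to 4 without male replicate 1. Under quantile normalization 1 gene of the lipid list was called.

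Some immune effector genes were also higher in females. Bomanin and Daisho peptides are short hemolymph peptides of the Toll response. Of these, 11 of 14 were higher in females and none lower at any level (median 2.23), against 3.04% and 8.34% of all genes tested. Of the 10 with a mean of 100 or more 9 were called, though 8 of the 9 had a male mean under 100. Classical antimicrobial peptides were less uniform, with 6 of 22 higher and 1 lower at any level (median 1.31). Of their 4 higher calls at a mean of 100 or more, 3 had a male mean under 100. Scarcer members had 2 of 16 higher and 1 lower. Of the Turandot genes 1 of 6 was higher and none lower. BomBc2 was at 336, 582 and 366 in females and 79.9, 98.6 and 56.8 in males. The LFC of BomBc2 was 2.42 ± 0.43 (adjusted p = 0.00523). Dso2, a Daisho peptide, was at 181, 326 and 95.6 in females and 30.0, 37.0 and 40.2 in males. The LFC of Dso2 was 2.30 ± 0.49 (adjusted p = 0.0141). In both, every female library exceeded every male library. NimB2, a secreted Nimrod protein, was at 231, 270.1 and 121 in females and 38.3, 34.5 and 63.9 in males (LFC 2.13 ± 0.44, adjusted p = 0.0122), and TotA, a stress peptide of the Turandot family, at 551, 1182 and 357 in females and 131, 249.8 and 117 in males (LFC 1.97 ± 0.39, adjusted p = 0.00978). IM33, a small immune-induced peptide, was at 212, 449 and 332 in females and 86.5, 168 and 97.7 in males (LFC 1.48 ± 0.36, adjusted p = 0.0256) and lost its call without male replicate 1 (adjusted p = 0.146). Among receptors and signaling proteins of immunity, NimB2, with a male mean under 100, was the 1 call in 16 genes with a mean of 100 or more. Their median was 0.20. That share of 6.25% was near the 4.39% called higher over all genes of this abundance. Without female replicate 3, 3 of these 16 genes were called.

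Some genes for protein synthesis and growth were higher in females. Of 43 translation factors with a mean of 100 or more, 4 were higher and none lower (median LFC 0.42), which is 9.3% against 4.39% of all such genes. DESeq2 called 7, and quantile normalization gave 2. In the ribosome, 1 of 80 cytosolic ribosomal proteins was called (RpL22, LFC 1.01 ± 0.35, adjusted p = 0.0908) and the list's median was 0.11. Rescaling gave 0 higher and 1 lower ribosomal call, and leaving out female replicate 3 gave 1 higher and 4 lower. eEF1alpha1, the elongation factor that brings aminoacyl-tRNA to the ribosome, was at 12768, 15011 and 6304 in females and 2583, 3719 and 3283 in males. The LFC of eEF1alpha1 was 1.75 ± 0.40 (adjusted p = 0.0188). Thor, the 4E-binding protein that holds back cap-dependent translation, was at 831, 579 and 409 in females and 163, 210.3 and 146 in males. The LFC of Thor was 1.76 ± 0.34 (adjusted p = 0.00849). eEF1gamma was at 1719, 1128 and 1218 in females and 604, 707 and 746 in males (LFC 0.96 ± 0.26, adjusted p = 0.0405). The next 4 genes were picked with their values in view. Myc, a growth-promoting transcription factor, was at 1378, 1742 and 650.0 in females and 356, 334.4 and 481 in males. The LFC of Myc was 1.59 ± 0.39 (adjusted p = 0.0252). S6k, the ribosomal protein S6 kinase, was at 2229, 1924 and 1149 in females and 917, 724 and 836 in males (LFC 1.05 ± 0.33, adjusted p = 0.0681), and InR, the insulin receptor, at 781, 901 and 781 in females and 503, 522 and 579 in males. The LFC of InR was 0.62 ± 0.21 (adjusted p = 0.0928). Atg8a, which marks autophagosomes, was at 5989, 6773 and 2892 in females and 1538, 2415 and 2536 in males (LFC 1.21 ± 0.40, adjusted p = 0.0788). Female replicate 3 was the lowest female in these genes, except in eEF1gamma and InR, and no gene overlapped between the sexes. The count of 4 translation factors became 2 without female replicate 1, 1 without male replicate 1 and 9 without female replicate 3. Thor kept its call whichever of the 6 samples was left out. The others lost it without male replicate 1 (eEF1alpha1, adjusted p = 0.122), without female or male replicate 1 (eEF1gamma and Myc, up to 0.209 and 0.123), or without any one sample but female replicate 3 (RpL22, S6k, InR and Atg8a, up to 0.42, 0.277, 0.278 and 0.305).

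In sugar and amino acid metabolism few genes moved. Of 22 genes of glycolysis and trehalose with a mean of 100 or more, 2 were higher and none lower (median LFC 0.10). This was 9.09%, against 4.39% of all such genes. Of the 2, fbp had a male mean under 100 and so reached the boundary through the females. At any level 3 of 24 were higher and none lower. fbp, the gluconeogenic fructose-1,6-bisphosphatase, was at 177, 207 and 157 in females and 63.2, 11.5 and 59.4 in males. The LFC of fbp was 2.31 ± 0.52 (adjusted p = 0.0179). Tps1, which makes trehalose, the sugar of hemolymph, was at 736, 274 and 650.0 in females and 185, 210.3 and 116 in males (LFC 1.61 ± 0.38, adjusted p = 0.0216), and lost its call without female replicate 1 (adjusted p = 0.124). Shmt, of one-carbon metabolism, was 1 of 2 called among 13 genes of purine and one-carbon synthesis (15.4%, median 0.50). The other of these 2 had a male mean under 100, and at any level 3 of 28 were higher and 2 lower. Shmt was at 382, 309 and 178 in females and 88.2, 127 and 122 in males (LFC 1.31 ± 0.30, adjusted p = 0.0216). Its call was lost without female or male replicate 1 (up to 0.126). Without female replicate 1 each of these lists held 1 call at a mean of 100 or more, as did the purine list without male replicate 1. Of the glutathione and antioxidant enzymes 1 of 27 was called (3.7%), GstT4, at 392, 635 and 251 in females and 103, 127 and 84.3 in males. The LFC of GstT4 was 1.93 ± 0.36 (adjusted p = 0.00698). Without female replicate 3 it was 10 of 27.

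Genes of the brain's own machinery were mostly not called. None of the 40 genes of the synaptic vesicle cycle passed in limma (6 were higher at an unadjusted p below 0.05, edgeR called 0 and DESeq2 6 higher). Their median LFC was 0.40, and the 95% intervals of single genes ran from -1.17 to 2.59, so that changes of this size could not be told from none. None of 26 voltage-gated and leak channels, 9 nicotinic receptors and 27 phototransduction genes with a mean of 100 or more was called in limma (0, 0 and 3 were higher and 1, 1 and 0 lower at unadjusted p below 0.05; edgeR called none and DESeq2 only 2 phototransduction genes), with medians of 0.10, 0.16 and 0.41. Without female replicate 3, limma called 7 synaptic genes higher, 3 phototransduction genes higher and 1 lower, and 2 channels lower. The channel and nicotinic medians turned to -0.15 and -0.24 under quantile normalization. Respiratory complex I (32 genes, 0 called in limma, 2 lower at unadjusted p below 0.05, 0 by edgeR or DESeq2), the proteasome (31 genes, 0 called, 0 at unadjusted p below 0.05, 0 by either tool) and the mitochondrial ribosome (67 genes, 0 called, 1 higher and 1 lower at unadjusted p below 0.05, 1 higher by edgeR and by DESeq2) had medians of -0.07, 0.14 and -0.05. Without female replicate 3, 2 complex I genes were lower and 1 mitochondrial ribosomal gene higher, and under quantile normalization 1 complex I gene was lower. Over 195 genes of the neuronal lists together, 6 were higher and 3 lower, with a median of 0.02, which became -0.18 under quantile normalization and -0.05 after rescaling on genes with a mean of 100 or more. Rescaling gave 4 higher and 7 lower calls, and DESeq2 15 and 3. Their 6 higher calls became 1, 2 and 17 without female replicates 1, 2 and 3 and 1 without any one male, and their 3 lower calls 0, 1, 34, 0, 0 and 2. Beside these, the summed midgut markers of females were at least 5927 in every library and those of males at most 233; their part in the other differences was not tested.

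**Figure D3:**
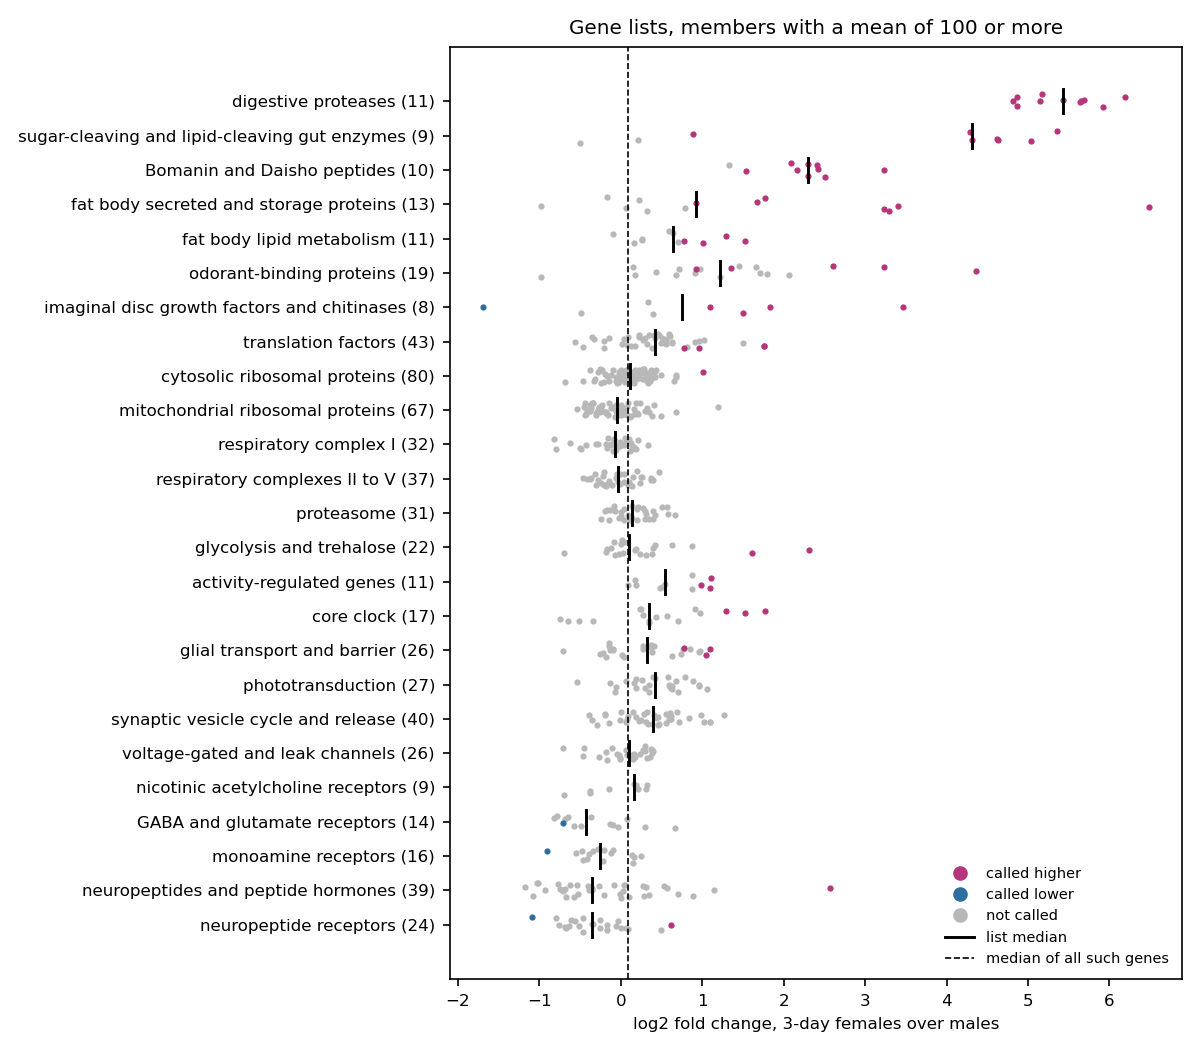
Log2 fold change of 3-day females over males (horizontal axis) for every member with a mean of 100 or more of 25 gene lists, with the number of such members in brackets, the list median as a black bar and the median of all 6149 such genes (0.09) dashed. The digestive lists have medians of 5.43 and 4.32, but 10 of their 11 and 6 of their 9 members shown have a male mean under 100, and the 40 synaptic vesicle genes hold no called gene.

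A few named genes of sex determination, neurons and glia were called. Sxl (chromosome X, 7074550 to 7098053), the master switch of sex determination, was at 7104, 6603 and 6154 in females and 3064, 2914 and 2868 in males (LFC 1.16 ± 0.34, adjusted p = 0.0529). fru (chromosome 3R, 18414273 to 18545586), the courtship regulator whose transcripts are spliced by sex, was at 5686, 4244 and 5361 in females and 3125, 2529 and 2590.0 in males (LFC 0.89 ± 0.26, adjusted p = 0.0516); the values count all its transcripts together. Both are read from whole genes, and the other 10 of 12 sex determination genes with a mean of 100 or more were not called, among them tra at 181, 118 and 212 in females and 186, 157 and 162 in males (LFC -0.03, 95% interval -0.55 to 0.50) and dsx at 95.3, 232 and 64.8 in females and 215, 158 and 56.2 in males (LFC -0.14, 95% interval -1.22 to 0.95). The male-specific dosage compensation subunit gene msl-2, repressed by Sxl protein in females, was at 453, 465 and 415 in females and 429, 509 and 374 in males (LFC 0.03, 95% interval -0.45 to 0.51). The homeodomain gene ct, picked with its values in view, was at 4861, 4397 and 4235 in females and 2867, 2150.0 and 2301 in males (LFC 0.89 ± 0.29, adjusted p = 0.0788), with the females close together. Of the glial list 3 of 26 were higher (11.5%, against 4.39% of all genes of this abundance) and none lower (median 0.32): Eaat1, the glial glutamate transporter, was at 3392, 6368 and 2382 in females and 1752, 2109.8 and 1432 in males (LFC 1.09 ± 0.36, adjusted p = 0.0792) and ogre, a gap junction innexin, at 875, 812 and 497 in females and 444, 426 and 368 in males. The LFC of ogre was 0.78 ± 0.22 (adjusted p = 0.0419). Of 11 activity-regulated genes 3 were higher (27.3%, median 0.54), CG46385 at 7916, 7333 and 4806 in females and 3198, 3073 and 2895 in males (LFC 1.10 ± 0.33, adjusted p = 0.0588) and CG14186 at 1246, 1186 and 914 in females and 554, 573 and 545 in males (LFC 0.99 ± 0.29, adjusted p = 0.0545) among them. Of 17 clock genes 3 were higher (17.6%, median 0.35); vri, a repressor of Clock, was at 299, 728 and 165 in females and 131, 108 and 106 in males (LFC 1.52 ± 0.48, adjusted p = 0.068) and to, a clock output gene, at 461, 482 and 463 in females and 96.5, 123 and 212 in males. The LFC of to was 1.78 ± 0.60 (adjusted p = 0.0841). ple, tyrosine hydroxylase of dopamine synthesis, was at 809.7, 1035 and 470.1 in females and 391, 411 and 378 in males (LFC 0.90 ± 0.30, adjusted p = 0.0864), and the scarcer Hn, phenylalanine hydroxylase, at 147, 175 and 94.0 in females and 36.6, 32.9 and 17.9 in males (LFC 2.23 ± 0.49, adjusted p = 0.017).

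Among neural genes lower in females, 5-HT2B, a serotonin receptor, was at 167, 229.8 and 274 in females and 408, 468 and 363 in males (LFC -0.90 ± 0.26, adjusted p = 0.0484) and rk, the bursicon receptor, at 136, 96.5 and 149.9 in females and 286, 290.0 and 232 in males. The LFC of rk was -1.09 ± 0.34 (adjusted p = 0.0657). These were 1 call among 16 monoamine receptors (median LFC -0.25) and 1 lower call among 24 neuropeptide receptors (median -0.35), in which InR was the 1 higher call. Both counts of lower calls became 0 without female replicate 1 or male replicate 1, and 5 and 8 without female replicate 3. The next 5 were picked with their values in view. DIP-theta and DIP-alpha, cell surface immunoglobulin proteins that pair with Dpr proteins at synapses, were at 257, 324 and 477 in females and 686, 789 and 529 in males (LFC -0.95 ± 0.25, adjusted p = 0.0355) and at 199.6, 281 and 373 in females and 532, 463 and 483 in males. The LFC of DIP-alpha was -0.83 ± 0.26 (adjusted p = 0.065). fra, the netrin receptor of axon guidance, was at 149, 175 and 246 in females and 334.5, 387 and 351 in males (LFC -0.93 ± 0.25, adjusted p = 0.0355). Shawl, a voltage-gated potassium channel, was at 739, 823 and 968 in females and 1105, 1328 and 1376 in males (LFC -0.59 ± 0.19, adjusted p = 0.0681), and the transcription factor gene Optix at 436, 379 and 549 in females and 684, 711 and 634 in males. The LFC of Optix was -0.59 ± 0.20 (adjusted p = 0.0874). In these genes female replicate 3 was the female sample nearest to the males. Calls on brain genes leaned on single libraries. Those of Sxl, ct, Eaat1, CG46385, CG14186, vri, ple, DIP-alpha, Shawl and Optix were lost on leaving out any one sample but female replicate 3 (adjusted p up to 0.189, 0.253, 0.316, 0.238, 0.212, 0.287, 0.307, 0.303, 0.271 and 0.28). The call of fru was lost without female replicate 1 or any male (up to 0.212), of ogre without female replicate 1 or 2 or male replicate 1 or 3 (up to 0.218), of to without any female or male replicate 1 or 2 (up to 0.291), of rk without female replicate 1 or 2 or male replicate 1 or 2 (up to 0.216), and of 5-HT2B, DIP-theta and fra without female replicate 1 or male replicate 1 or 2 (up to 0.243, 0.196 and 0.18). The 3 glial calls became 0, 0 and 9 without female replicates 1, 2 and 3 and 0, 1 and 0 without the males, the 3 clock calls 0, 0, 4, 1, 0 and 1, and the 3 activity-regulated calls 0, 1, 6, 0, 0 and 0. Under quantile normalization none of the glial and clock genes and 1 of the activity-regulated genes was called.

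**Figure D4:**
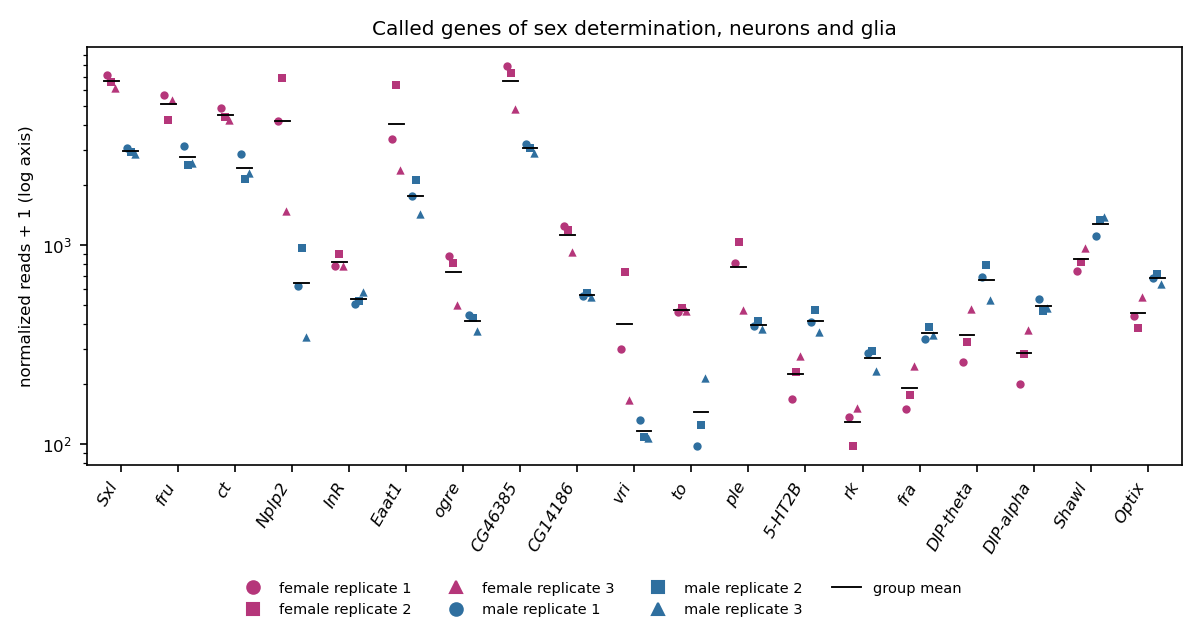
Normalized reads + 1 (log axis) of called genes of sex determination, neurons and glia in each 3-day library, with females in magenta, males in blue, a marker shape for each replicate and a line at the group mean. Sxl separates at 6154 to 7104 in females against 2868 to 3064 in males, and the right-hand genes from 5-HT2B on are higher in males.

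By chromosome, 65 of 1065 X-linked genes with a mean of 100 or more were higher in females (6.1%) and 10 lower, with a median LFC of 0.16. On chromosomes 2 and 3 together 203 of 5008 were higher (4.05%) and 76 lower, with a median of 0.07, which fell to -0.05 under quantile normalization while that of X was 0.03. A male mean under 100 was seen in 14 of the 65 X-linked calls and in 74 of the 203. The 65 X-linked calls became 14, 23 and 134 without female replicates 1, 2 and 3 and 13, 32 and 31 without the males, and the 203 became 72, 83, 527, 67, 137 and 102. The 10 lower X-linked calls became 3, 5, 46, 2, 5 and 6, and the 76 became 3, 24, 338, 2, 19 and 44. On the small chromosome 4, 2 of 75 genes were higher and none lower (median 0.39), a share of 2.67% against 4.39% over all chromosomes.

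The male-higher genes with a mean of 100 or more were less abundant and their differences smaller. fest showed the largest difference, at 8.97, 36.8 and 47.0 in females and 279.6, 161 and 197 in males (LFC -2.98 ± 0.53, adjusted p = 0.00523). The 15 largest were picked from called genes without overlap between the sexes. tyn, a zona pellucida domain protein of the apical matrix, was the most abundant of the 15 largest, at 221, 338 and 515 in females and 947, 886 and 981 in males. The LFC of tyn was -1.47 ± 0.30 (adjusted p = 0.0107). Both kept their calls whichever sample was left out. The giant cadherin gene ft was at 14.6, 50.9 and 43.0 in females and 384, 170.1 and 105 in males (LFC -2.54 ± 0.64, adjusted p = 0.0281), where male replicate 1 was far above the other males. wb, a laminin alpha chain, was at 58.3, 43.8 and 54.3 in females and 245, 138 and 163 in males (LFC -1.75 ± 0.50, adjusted p = 0.0464), beside LanA, another laminin chain, at 86.3, 153 and 99.7 in females and 474, 266 and 181 in males (LFC -1.36 ± 0.48, adjusted p = 0.0996). Cyp4d14, a cytochrome P450, was at 43.7, 57.9 and 84.3 in females and 206, 154 and 222 in males (LFC -1.66 ± 0.31, adjusted p = 0.00698), also held in every leave-one-out fit. Over all genes with a mean of 100 or more 4.39% were higher in females and 1.4% lower. Of the P450 genes of this abundance 3 of 28 were higher and 3 lower (10.7% each, median LFC 0.13). Of the 3 lower calls 2 had a female mean under 100. The higher calls became 0, 0 and 6 without female replicates 1, 2 and 3 and 1, 1 and 0 without the males, and the lower ones 2, 3, 5, 1, 2 and 3. Rsph1, a radial spoke protein of motile cilia, was at 65.0, 89.4 and 233 in females and 429, 406 and 400.4 in males (LFC -1.88 ± 0.45, adjusted p = 0.0238), the 1 call among 6 cilium motility genes of this abundance, with female replicate 3 the highest female. Act88F, the flight muscle actin, was at 37.0, 47.4 and 25.1 in females and 179.7, 249 and 105 in males (LFC -2.21 ± 0.57, adjusted p = 0.0316), the only one of 30 muscle genes to be called, of which the median was 0.05. Cht10, a chitinase, was at 47.1, 45.6 and 79.4 in females and 245, 182 and 135 in males (LFC -1.69 ± 0.38, adjusted p = 0.0179), in a list of chitinases and growth factors of which 4 of 8 were higher and Cht10 alone lower. Of the 4 higher calls 3 had a male mean under 100, and Cht10 had a female mean under 100. At any level 6 of 16 of this list were higher and 2 lower. The 4 higher calls at a mean of 100 or more became 2 without female replicate 1 or 2 or male replicate 1 or 3, and 1 under quantile normalization. Calls were lost without female or male replicate 1 for ft and Rsph1 (adjusted p up to 0.168 and 0.136), without female replicate 1 or 2 or male replicate 1 for wb (up to 0.214), without female replicate 1 or male replicate 1 or 2 for Act88F (up to 0.143), without any one sample but male replicate 3 for LanA (up to 0.373), and without male replicate 1 for Cht10 (0.115).

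**Figure D5:**
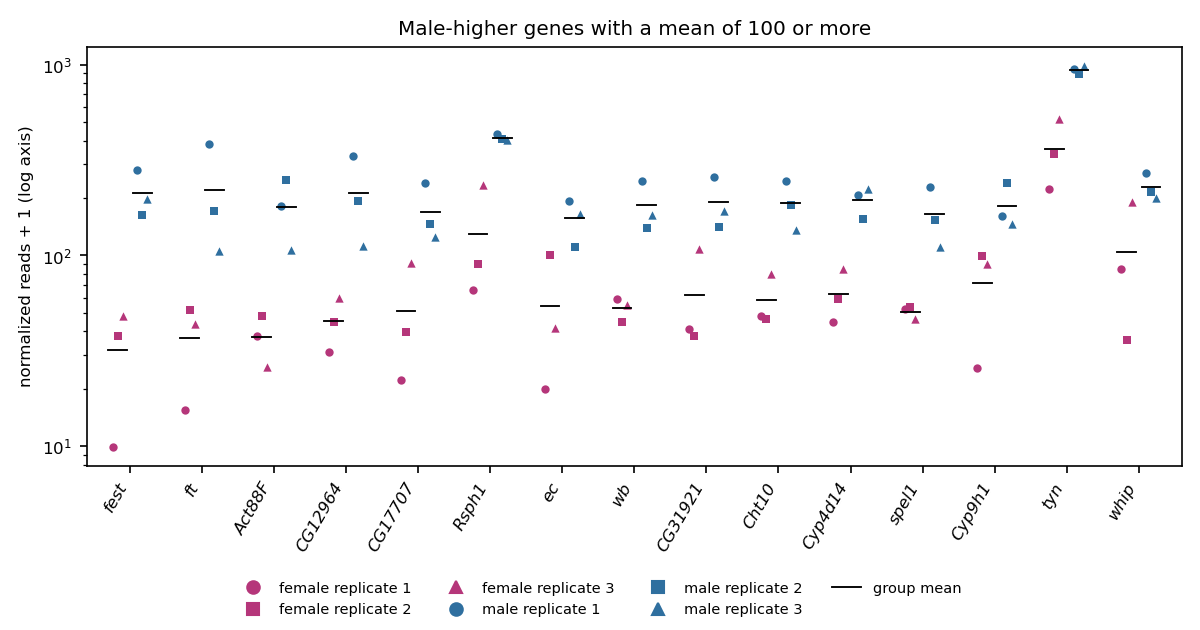
Normalized reads + 1 (log axis) of the 15 genes with a mean of 100 or more and the largest male-higher fold changes without overlap between the sexes, in each 3-day library, with females in magenta, males in blue, a marker shape for each replicate and a line at the group mean. For ft male replicate 1 (circle) lies at 384 against 170 and 105 in the other males.

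The scarcer genes showed the reverse picture. Of 6299 tested, 952 were lower in females (15.1%) and 109 higher (1.73%), and the median LFC over all of them was -0.71. Under quantile normalization, which shifted the median LFC of all tested genes by 0.10, 94 were lower and 113 higher, so the higher share of these calls went from 10.3% to 54.6%, and the median became 0.01. Of the scarcer genes, 1489, 705 and 737 had no read in the 3 female libraries and 121, 159 and 166 in the male libraries. The 952 lower calls became 229, 773 and 1120 without female replicates 1, 2 and 3 and 129, 609 and 691 without male replicates 1, 2 and 3, and the 109 higher calls 31, 47, 208, 44, 75 and 67. Without both replicates 1, 2 were lower and 0 higher. At an unadjusted p below 0.05 in the full fit 1688 were lower and 211 higher. On the same scarcer genes edgeR called 802 lower and 116 higher, and DESeq2 1188 and 186.

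Some sensory, cilium, cuticle and cell division genes were among the male-higher genes of low level. Of the scarcer gustatory receptors 17 of 43 were lower in females and none higher (median LFC -2.13), of ionotropic receptors 10 of 49 (-1.77), of odorant receptors 8 of 48 (-1.10), of pickpocket sodium channels 5 of 24 (-1.06) and of cuticle proteins 18 of 83 (-1.38), against 15.1% of all scarcer genes. The shares of odorant, ionotropic and pickpocket genes and of cuticle proteins (16.7%, 20.4%, 20.8% and 21.7%) were near this background, and that of gustatory receptors was 39.5%. Of 22 scarcer cilium motility genes 9 were lower (40.9%) and none higher, with a median of -1.36 and every LFC below 0. The 9 became 2 without female replicate 1 or male replicate 1, and 2 under quantile normalization. The median gustatory receptor was at 0, 1.75 and 2.43 normalized reads in females and 11.6, 7.39 and 7.66 in males, a range in which a few reads decide a value. Gr22a was at 0, 1.75 and 1.62 in females and 30.0, 21.4 and 17.9 in males (LFC -3.61 ± 0.72, adjusted p = 0.0101) and the odorant receptor gene Or24a at 3.36, 5.26 and 13.0 in females and 71.6, 44.4 and 91.3 in males (LFC -3.21 ± 0.69, adjusted p = 0.0151), and neither overlapped between the sexes. Cpr47Ed, a chitin-binding cuticle protein, was at 0, 5.26 and 2.43 in females and 61.6, 27.9 and 42.8 in males. The LFC of Cpr47Ed was -3.95 ± 0.66 (adjusted p = 0.00498). Of the cell cycle and replication genes 6 of 28 were lower and none higher, a share of 21.4% near the background and a median of -0.70 beside -0.71 over all scarcer genes. Those called included PolA1, a DNA polymerase alpha subunit, at 5.61, 1.75 and 10.5 in females and 81.5, 42.7 and 60.7 in males (LFC -3.35 ± 0.63, adjusted p = 0.00727) and polo, a mitotic kinase, at 3.36, 5.26 and 0.81 in females and 48.3, 28.8 and 30.7 in males. The LFC of polo was -3.29 ± 0.80 (adjusted p = 0.0256). Under quantile normalization 1 member was called lower in each of the 4 receptor and channel lists and in the cuticle list and none in the cell cycle list, and the odorant receptor, cuticle and cell cycle medians turned to 0.13, 0.07 and 0.08. Without male replicate 1 the lower calls, counting members of any level, fell from 17 to 6 for gustatory, 10 to 1 for ionotropic and 10 to 4 for odorant receptors, 6 to 2 for pickpocket channels, 19 to 2 for cuticle proteins and 6 to 1 for cell cycle genes, and without female replicate 1 they fell to 5, 1, 4, 2, 4 and 2. polo was called no longer without male replicate 1 (adjusted p = 0.135).

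Some genes known from the male germ line were lower in females too. Of scarcer genes of meiotic cohesion and spermatocytes 10 of 45 were lower and none higher, a share of 22.2% near the 15.1% of all scarcer genes. Their median LFC was -1.38, which became -0.18 under quantile normalization with 4 called. Of 9 Y-linked genes 7 were lower (median -3.63). The cohesin subunit gene SA2 was at 0, 0 and 0 in females and 38.3, 18.9 and 31.3 in males, with adjusted p = 0.000502. Set against a floor of 3 reads over the 3 female libraries, it was at least 26.5-fold higher in males. CG10182 was at 0, 0 and 0 in females and 30.0, 14.8 and 37.7 in males, at least 24.7-fold higher in males by the same floor, and the Y-linked CG40635 at 0, 0 and 0 in females and 43.3, 32.04 and 11.5 in males, at least 26-fold higher. CG12983 was at 0, 1.75 and 4.05 in females and 91.5, 43.5 and 76.0 in males (LFC -4.83 ± 0.74, adjusted p = 0.00361) and CG30047 at 0, 1.75 and 1.62 in females and 76.5, 62.4 and 35.8 in males (LFC -4.87 ± 0.83, adjusted p = 0.00498). The summed testis markers overlapped between the sexes, at 7.85, 66.6 and 20.3 in females and 288, 50.9 and 92.0 in males. Of these 5 markers 1 was called lower in females, and 0 without male replicate 1. Their part in the values above was not tested. Without male replicate 1 the lower calls of the spermatocyte list fell to 4 and of the Y-linked list to 3, and without female replicate 1 to 5 and 4.

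Among the 109 scarcer genes higher in females were the following, each without overlap between the sexes, which was a condition for naming the largest changes. Phae2, a serine protease, was at 50.5, 329.7 and 101 in females and 0, 8.22 and 0 in males (LFC 5.84 ± 1.28, adjusted p = 0.0167), LysB, a lysozyme, at 149, 47.4 and 161 in females and 1.66, 3.29 and 3.19 in males (LFC 4.86 ± 1.13, adjusted p = 0.021) and the P450 gene Cyp4e1 at 74.0, 172 and 154 in females and 1.66, 9.86 and 12.1 in males. The LFC of Cyp4e1 was 4.12 ± 0.84 (adjusted p = 0.0107). CG42397 was at 40.4, 442 and 21.1 in females and 1.66, 1.64 and 0 in males (LFC 5.27 ± 1.21, adjusted p = 0.0198), with female replicate 2 far above the other females. Tsp42Eq, a tetraspanin, was at 5.61, 40.3 and 24.3 in females and 0, 0 and 0 in males, with no read in males. LysB lost its call without male replicate 1 (adjusted p = 0.104).

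The sex effect at 3 days was tested against that at 7 days (2 female and 3 male libraries) and at 14 days (2 and 3) in the same fit. It differed from 7 days in 68 of 12448 genes (0.546%), 8 of them with a mean of 100 or more and 60 scarcer, all of which were called at 3 days, and from 14 days in 0 in limma (310 genes with a mean of 100 or more and 354 scarcer ones had an unadjusted p below 0.05, and no other tool was run). The 8 were the digestive enzyme genes Amy-p, Amy-d and Mal-A1, together with CG10910, CG14125, CG5506, CG5399 and fest. CG14125 was at 1384, 1445 and 81.1 in females and 13.3, 160.2 and 10.2 in males (LFC 4.21 ± 1.15, adjusted p = 0.0396) at 3 days. At 7 days its LFC was -4.48 and not called (adjusted p = 0.479), with the 2 females at 143 and 8.77. Its call at 3 days was lost without female replicate 1 or 2 or male replicate 1 or 3 (adjusted p up to 0.194). For the fat body gene CG2233 and for Nplp2 the direction was the same at the older ages. The LFC of CG2233 was 2.30 at 7 days and 3.35 at 14 days, and that of Nplp2 2.14 and 4.80. Those of epsilonTry were 2.02 and 1.41 and of Jon65Aiv 0.78 and 0.15, and none of these differences from 3 days passed.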

How the data were processed

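Brain RNA of virgin females and males at 3, 7 and 14 days was sequenced after a TruSeq v2 preparation. The authors trimmed reads with Trimmomatic 0.39, removed ribosomal RNA with Sortmerna, mapped with STAR 2.7.3a to FlyBase release 6 and deposited reads per gene divided by DESeq2 size factors, a signal with no further unit; the counting tool and its strand setting are not given in the sources used here. The labels name DESeq2 2.10 and R 2.14.1. Of the 18 samples, 16 were analysed here, each from its own column. The paper removed a 7-day and a 14-day female sample as outliers by principal component analysis, and these had no column. Dividing each column by its smallest step gave whole reads for 100% of values (tolerance 1e-06), and these gave the depths.

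Only genes averaging 5 or more normalized reads across 16 libraries were kept, log2(value + 1) was fitted with limma 3.58.1 (R 4.3.3, all 6 groups in one model, trend), and Benjamini-Hochberg adjusted p below 0.1 was called. Fold changes therefore understate changes of low genes. The fit was tested on simulated counts. These had the same spread setting for every gene and no sex difference in the number of genes detected. The simulation therefore does not measure errors under the spread and detection seen here. DESeq2 1.42.0 and edgeR 4.0.16 on whole reads, other pseudocounts, filters and scalings, a replicate block, array weights, other boundaries and leaving out each sample were the alternatives. LFC is given ± SE, with 3 samples in each 3-day group. Labels do not say whether samples came from separate cultures, so p-values measure the spread between pools. That spread was estimated within all 6 groups of the 16 libraries together, not from the 3-day pools alone. The older female samples that the paper removed as outliers were not among them. The effect of this on the spread was not tested.

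Genes named were the 15 largest changes in each direction at a mean of 100 or more and the 8 largest among scarcer genes, if called and not overlapping between the sexes, up to 4 called members with the smallest p in each gene list, and cell type markers; others are named as chosen after their values were seen. The comparison, lists and members were chosen with earlier results of these data known. Positions are in genome release 6, from RefSeq (13434 genes matched by identifier, 4 by synonym, 1 not). Expected numbers of detected genes at a common depth come from sampling without replacement. No sequences are printed.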

Additional observations from a re-analysis of the deposited data

Results flagged for a closer look

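The sex effect at 3 days differed from that at 7 days for 21 of the genes named, by the difference of the 2 log2 fold changes in the limma fit, over 2 female and 3 male libraries at 7 days. Values are the difference, 3 days minus 7 days, with its SE and adjusted p. It was positive for CG10910 (9.13 ± 1.85, adjusted p = 0.0808), CG14125 (8.69 ± 1.73, 0.0808), Amy-d (6.70 ± 1.09, 0.0273), CG5506 (6.53 ± 1.53, 0.0911), Amy-p (5.98 ± 0.86, 0.0223), CG5399 (5.96 ± 1.24, 0.0808), Cyp4e1 (5.43 ± 1.25, 0.0874) and Mal-A1 (5.40 ± 1.03, 0.0703). All 8 were higher in females at 3 days, and their log2 fold changes at 7 days were all below 0. Those of all but the scarcer Cyp4e1 were not called at 7 days (adjusted p from 0.479 to 0.794). The 2 females at 7 days lay far apart in CG10910, at 95.6 and 2.39.

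It was negative for solo (-6.80 ± 1.10, adjusted p = 0.0273), CG10182 (-6.13 ± 1.13, 0.0698), RpL22-like (-6.01 ± 1.28, 0.0808), CG30047 (-5.97 ± 1.25, 0.0808), CG12983 (-5.94 ± 1.11, 0.0698), SA2 (-5.81 ± 0.93, 0.0273), UQCR-6.4L (-5.18 ± 1.20, 0.0874), Cyp313a3 (-4.70 ± 1.09, 0.0874), PolA1 (-4.52 ± 0.95, 0.0808), Cpr47Ed (-4.51 ± 1.00, 0.0808), Ugt37E1 (-3.67 ± 0.84, 0.0874), fest (-3.57 ± 0.79, 0.0808) and btv (-3.20 ± 0.73, 0.0874). All but fest are scarcer genes, and all 13 had log2 fold changes above 0 at 7 days, from 0.34 for Cyp313a3 to 1.49 for solo. That of fest was not called at 7 days (adjusted p = 0.819), and of all 6299 scarcer genes tested only 1 was called at that age. The gene solo (chromosome 2L, 15061656 to 15072133) lies within vas (15061656 to 15074311), and reads of this overlapping pair could not be assigned to either gene. Groups of 2 or 3 samples are too small for a search for single outlying samples.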

How the results depend on the processing

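Direction held for all 195 named calls in every alternative in which they could be fitted. For genes without overlap between the sexes, a condition for naming the largest changes, leaving out a sample could not reverse it. Of the 195, 78 stayed called whichever of the 6 samples was left out, and 98 under quantile normalization. Without female replicate 1 and male replicate 1, 16 stayed called. In the order of genes with a mean of 100 or more higher and lower and scarcer genes higher and lower in females (270, 86, 109 and 952), array weights, whose estimation stopped short of its convergence tolerance, gave 946, 527, 275 and 1758, quantile normalization 87 and 19 for the first pair and 94 for the last, an adjusted p of 0.05 gave 133, 32, 68 and 512 and an unadjusted p of 0.05 gave 705, 295, 211 and 1688. DESeq2 raised the higher counts to 458 and 188, and a fit of only the 3-day samples the first to 440. A pseudocount of 5 lowered the lower counts to 53 and 505, a boundary of 50 gave 191 common genes lower and 50 scarcer ones higher, and a boundary of 200 gave 43 and 167. Leaving out 1 sample gave 81 to 675, 4 to 385, 31 to 208 and 129 to 1120, and leaving out both replicates 1 gave 18, 0, 0 and 2. With replicate number as a block the counts were 206, 50, 89 and 715; same-numbered females and males did not deviate together (correlations of -0.19, -0.14 and -0.05), so the numbers were not taken to pair samples. The causes of these shifts were not tested. edgeR, other filters, a pseudocount of 0.5 and rescaling kept all 4 counts within 1.5 times. Scarcer genes rest on a few reads per library, where depth limits precision; floors cover counting error only.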
